A study of Mus musculus with 8 samples.

Results

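The genes examined here encode the proteins of the cytosolic ribosome, the particle that translates messenger RNA. They were chosen by their symbols, as every Rps (small subunit) or Rpl (large subunit) name with a number and an optional paralog suffix, together with the stalk genes Rplp0, Rplp1 and Rplp2. The rule found 81 of the 15985 gene symbols in the table, of which 32 belong to the small subunit, 46 to the large subunit and 3 to the stalk. Each of the 81 has 1 Ensembl identifier, and 80 are annotated as protein coding, the exception being Rps4l. The paralogs Rpl3l, Rpl10l and Rpl39l were not analysed here.

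RNA was sequenced from pancreatic islets, the endocrine cell clusters in which beta cells make insulin, of 8 mice of mixed strain aged 13 to 16 months. The 4 animals labelled knockout were Ins-Cre;Sox9fl/fl, in which an insulin-promoter Cre acts in beta cells from embryonic stages to remove exons of Sox9, which encodes a regulator of progenitor and duct cells in the pancreas. Control 1 was Sox9fl/fl, control 2 Sox9fl/+, control 3 Sox9+/+ and control 4 Sox9+/fl, none with Cre, so that Cre and the loss of Sox9 cannot be told apart. Sox9 itself did not separate the groups, with normalized values of 13.3 to 37.3 in controls against 11.7 to 36.6 in the knockout-labelled libraries (limma, log2 difference -0.02, SE 0.44, adjusted p = 0.990). Whole islets were sequenced, so that Sox9 RNA of beta cells and of other cells, such as duct cells, was not told apart. The study reports reduced Sox9 in knockout islets by quantitative PCR. By in situ hybridization it reports loss from insulin-positive cells, with signal in ducts.

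Each cytosolic ribosome carries 1 copy of nearly every ribosomal protein, and cells make these proteins in matched amounts. Their messenger RNAs begin with a run of pyrimidines, the 5′ terminal oligopyrimidine (TOP) motif, through which the kinase complex mTORC1 and the RNA-binding protein LARP1 control their translation and stability together. Beta cells devote much of their protein synthesis to proinsulin, so that the supply of ribosomes bears directly on their secretory work.

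A pyrimidine-rich motif at the start was searched for by its letters. RefSeq windows of GRCm38.p6 were at hand for 60 of the 81 genes. A gene with several annotated starts was counted if any of its windows held the letters, and such a window is the one shown. The letters CTTTCC on the transcript strand, between 10 bases before and 20 bases after the annotated start, were found in 9 of the 60 (15.0%), against 1.52% of the 27025 genes with such a window. Anywhere in the 300 bases, CTTTCC was found in 40.0% of the 60 and in 16.0% of all genes. CCGGAAG on either strand, a core of the binding sites of ETS family factors, was found in 40.0% and 9.93%. The 2 motifs can share 2 bases, which was the case in 5 genes of all those with a window. The following windows run from 30 bases before the start to 20 bases from it on. Those of Rpl13a, Rpl35a and Rps3 are shown because these genes have some of the largest differences between the groups, Rps27 for its high level, Rps10, Rpl15 and Rpl28 as further genes with CTTTCC at the start, and Rps2 for its behaviour in control 1. Capitals mark CTTTCC or CCGGAAG.

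Rpl13a (chr7:45128726-45128775, minus strand): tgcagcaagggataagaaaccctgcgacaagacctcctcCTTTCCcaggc
Rpl35a (chr16:33056452-33056501, plus strand): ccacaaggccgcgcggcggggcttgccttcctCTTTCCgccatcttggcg
Rps27 (chr3:90213629-90213678, minus strand): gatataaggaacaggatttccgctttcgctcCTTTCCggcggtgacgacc
Rps10 (chr17:27635225-27635274, minus strand): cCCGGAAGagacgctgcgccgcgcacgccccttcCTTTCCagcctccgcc
Rpl15 (chr14:18270967-18271016, minus strand): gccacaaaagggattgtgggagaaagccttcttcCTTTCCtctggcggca
Rpl28 (chr7:4792935-4792984, plus strand): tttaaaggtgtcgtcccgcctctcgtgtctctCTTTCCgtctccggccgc
Rps3 (chr7:99483690-99483739, minus strand): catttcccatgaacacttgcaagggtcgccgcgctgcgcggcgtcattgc
Rps2 (chr17:24720033-24720082, plus strand): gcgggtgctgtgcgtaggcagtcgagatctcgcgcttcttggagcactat

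In the windows of Rps3 and Rps2 neither set of letters occurs. The median log2 difference between the groups was -0.17 for the 9 genes with CTTTCC near the start and -0.12 for the other 51, a description with no test.

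Ribosomal protein transcripts were abundant in every library. The deposited values are estimated reads divided by a size factor per library, here called normalized values. The 81 genes together held 1.83% to 2.17% of a control library and 1.78% to 1.97% of a library labelled knockout. Ins2, an insulin gene, alone held 20.5% to 28.6% of a library, and without the insulin genes the shares were 2.83% to 3.15% and 2.67% to 2.94%, which overlap between the groups. Estimated depth ranged from 11.0 to 26.2 M reads, and 1 read was worth a normalized value between 0.659 and 1.379, far below the level of any of the 81 genes. The median of their mean values was 3464, against 175 for all 15960 genes that passed the filter of a value above 1 in at least 4 libraries. All 81 passed it.

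The highest mean values belonged to Rpl41, whose product is the smallest ribosomal protein, Rps27, a zinc-finger protein of the small subunit, and Rpl13a. Rpl41 stood at 13351, 13661, 12009 and 12214 in the controls and at 9638, 11850, 13427 and 10378 in the libraries labelled knockout. Rps27 stood at 11635, 12039, 12085 and 10112 in the controls and at 9531, 12497, 11263 and 11147 in the libraries labelled knockout. Both genes overlapped between the groups. The lowest values belonged to Rpl5, Rpl12 and Rpl7l1. Divided by the annotated length of the main transcript, the levels of 80 genes had a median of 4104 per kilobase, with the middle of them between 2444 and 7200 (quartiles). On this scale Rps27 (32721 per kilobase) and Rpl41 (20732 per kilobase) were highest, and Rpl5 (96.5 per kilobase) lowest. Near-identical copies, described below, held 96.8% of the summed value of Rpl5 and its copy, and 90.8% for Rpl12. The low levels of these 2 genes thus depend on how reads were divided between the lines.

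No single ribosomal protein gene passed the test between the groups, and the differences were small and mostly toward lower values in the libraries labelled knockout. limma on log2(value + 0.5) called 0 of the 81 at an adjusted p below 0.05, where 0.0564% of all genes tested (9 of 15960) were called, and 0.0188% were called lower. At an unadjusted p below 0.05 there were 6 of the 81 (7.41%), all lower in the libraries labelled knockout. The share of all genes at this unadjusted threshold was 10.7% in either direction and 6.36% lower. The estimate was below 0 for 74 of the 81 genes (91.4%), against 55.1% of all genes. The 81 genes moved together across the libraries (below), so that this count and those that follow are not counts of independent genes. The mean log2 level of the 81 differed by -0.12 between the groups. Its SD over 4 libraries was 0.10 in the controls and 0.15 in the libraries labelled knockout. The median log2 difference was -0.13, a change of -8.34%, against -0.03, or -2.28%, over all genes. The quartiles of the estimates were -0.18 and -0.08, and the extremes were -0.37 and 0.22. Whole islets were measured, so that fewer cells of a type and less RNA per cell cannot be told apart.

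**Figure D1:**
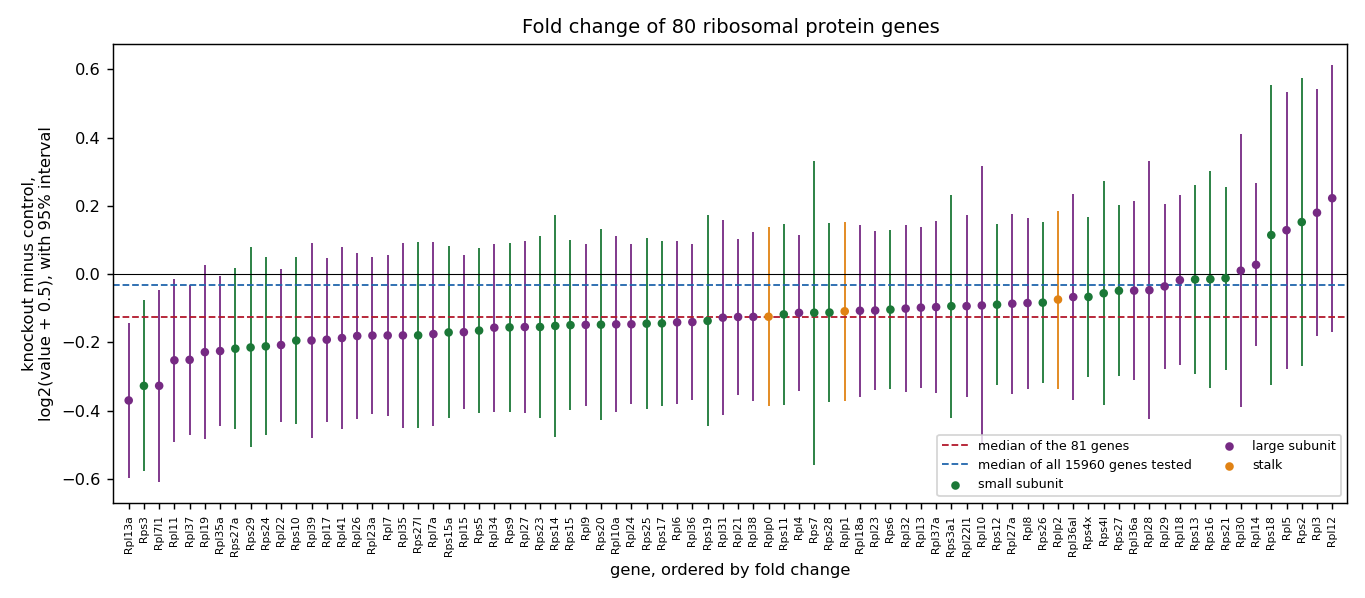
Difference between the groups (knockout minus control, log2 of value + 0.5) for 80 of the 81 ribosomal protein genes, ordered by size, with 95% intervals from limma and colours for the subunits. Of the 80 points, 73 lie below 0, and the dashed lines mark the medians of the 81 genes (-0.13) and of all genes tested (-0.03).

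The precision of these estimates bounds what could have been missed. Standard errors ran from 0.10 to 0.20 on the log2 scale, with a median of 0.12 against 0.19 over all genes. All 81 intervals (95%) lay within 1 of 0 on the log2 scale, and 71 within 0.5. The subunits did not stand apart from each other in this count: 30 of 32 small subunit genes were below 0 (median -0.13), 41 of 46 large subunit genes (median -0.13) and 3 of 3 stalk genes.

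Rpl13a (ENSMUSG00000074129, chr7:45125558-45128761, minus strand), a large subunit protein that in human cells also silences inflammatory messenger RNAs, had the smallest p of the 81. Its values were 9845, 10122, 10087 and 9581 in the controls and 7435, 7208, 8926 and 7215 in the libraries labelled knockout. Every control was above every library labelled knockout, and knockout 3 was the highest of its group. The log2 difference was -0.37 (SE 0.10, limma, adjusted p = 0.221). It stayed between -0.44 and -0.34 when any 1 library was left out.

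Rpl37 (chr15:5116645-5119140, plus strand), a zinc-binding protein of the large subunit, was the other gene whose groups did not overlap. Its values were 2439, 2821, 2639 and 2340 in the controls and 2026, 2134, 2308 and 2121 in the libraries labelled knockout, with control 4 and knockout 3 closest to each other. The log2 difference was -0.25 (SE 0.10, limma, adjusted p = 0.404). Groups without overlap, lower in the libraries labelled knockout, were found for these 2 of the 81 genes and for 3.68% of all genes tested, and no ribosomal protein gene lay wholly higher (2.67% of all genes).

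Rps3, a protein at the mRNA entry site of the small subunit, stood at 5798, 5873, 6076 and 5008 in the controls and at 4001, 4827, 5113 and 4232 in the libraries labelled knockout. Knockout 3 lay above control 4, so that the groups overlapped (log2 difference -0.33, SE 0.11, limma, adjusted p = 0.328). Rpl11, which with Rpl5 and the 5S ribosomal RNA binds the p53 regulator Mdm2 when ribosome assembly is disturbed, stood at 4017, 3762, 3845 and 3423 in the controls and at 2802, 3383, 3527 and 2954 in the libraries labelled knockout. Its groups overlapped only through control 4 and knockout 3 (log2 difference -0.25, SE 0.11, limma, adjusted p = 0.442). Rpl35a, a large subunit protein mutated in some families with Diamond-Blackfan anaemia, had a log2 difference of -0.23 (SE 0.10, limma, adjusted p = 0.458).

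The remaining genes with a known second role had smaller differences. Rps6, the substrate of the S6 kinases that is phosphorylated when mTORC1 is active, had a mean of 7010 ± 528 in the control group and 6524 ± 545 in the other group (SD, n = 4 each). Rps27a, which is made as a fusion with ubiquitin, had means of 4930 ± 292 and 4249 ± 448 (SD, n = 4 each) and a log2 difference of -0.22 (limma, adjusted p = 0.505). Rpl22, needed for lymphocyte development in mice, had a log2 difference of -0.21, and Rpl39, which lines the exit tunnel of the nascent chain, one of -0.19. Rps9, a protein of the decoding region, had -0.16 and Rps27 -0.05.

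The stalk proteins Rplp0, Rplp1 and Rplp2 recruit the elongation factors. Their log2 differences were -0.12, -0.11 and -0.07, and the values of all 3 overlapped between the groups. Of the 8 paralogs on the list, 5 had a line, and all 5 estimates were below 0 with 0 called. Rpl7l1, a paralog of Rpl7, had the largest difference among them. Its values were 490, 470, 397 and 349 in the controls and 334, 323, 330 and 362 in the libraries labelled knockout. Knockout 4 exceeded control 4 (log2 difference -0.33, SE 0.13, limma, adjusted p = 0.392). Rps27l, a paralog of Rps27 induced by p53, had -0.18, Rpl22l1 -0.09, Rpl36al -0.07 and Rps4l -0.06.

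The level of the ribosomal protein genes differed more between libraries than between the groups. The mean of the 81 log2 values, each gene centred on its own mean over the 8 libraries, was 0.06, 0.14, 0.11 and -0.08 in controls 1 to 4. It was -0.18, -0.01, 0.13 and -0.17 in the libraries labelled knockout 1 to 4. On the deposited scale control 4, knockout 1 and knockout 4 were thus low together, and knockout 3 was as high as controls 2 and 3. The order of the libraries changes with the scaling. As a share of the library, knockout 1 (1.97%) lay above knockout 3 (1.91%), control 1 (1.83%) and control 4 (1.83%). Without the insulin genes, control 4 (2.93%) lay above knockout 3 (2.89%) and control 1 (2.83%). In control 2, 78 of the 81 genes were above their own mean, and in knockout 3 it was 75. In knockout 1 and knockout 4 it was 4 and 1. The small and large subunit means differed by at most a few hundredths within a library, as in knockout 1 (-0.20 and -0.17).

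**Figure D2:**
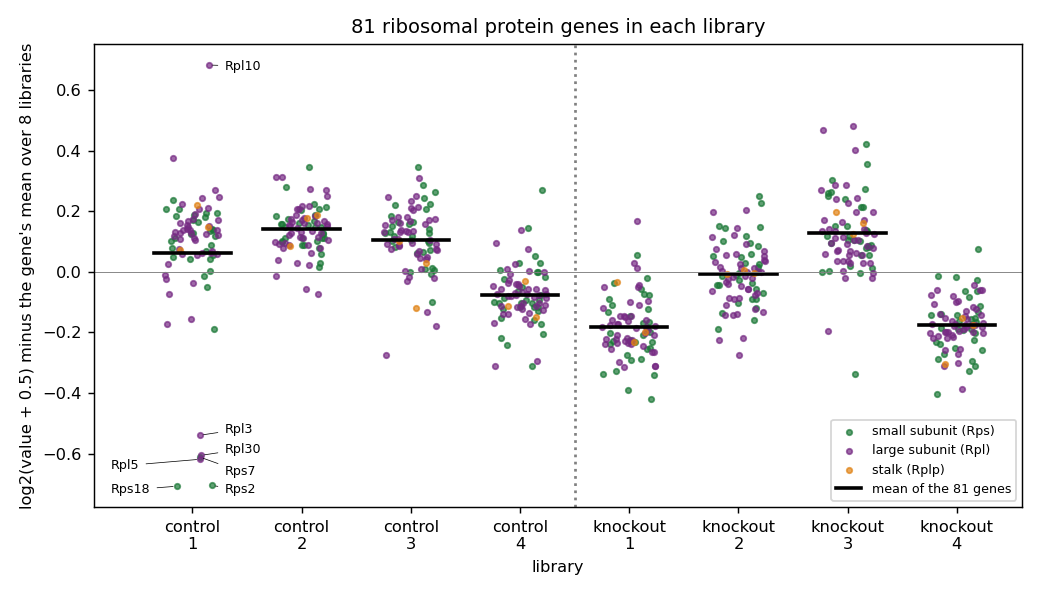
Each point is 1 of the 81 ribosomal protein genes in 1 library, as log2(value + 0.5) minus the gene's own mean over the 8 libraries, and the black bar is the mean of the 81 genes. The bars of control 4 (-0.08), knockout 1 (-0.18) and knockout 4 (-0.17) are the lowest 3, and the 7 genes named in control 1 lie away from the rest of that library.

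The choice of scaling moves all libraries and so the level of the estimates. With every library scaled to the same sum of values, the median log2 difference was -0.04 for the 81 genes and 0.05 for all genes, and 59 of the 81 were below 0 where 41.1% of all genes were. The median of the 81 minus that of all genes was -0.09 under this scaling and under the deposited one. Dividing a library by 1 factor shifts all its genes alike, so that this agreement was all but fixed beforehand. With quantile normalization, which is not a single factor, the gap was -0.06, and with the acinar covariate described below -0.07. With 1 library left out it lay between -0.16 (without knockout 3) and -0.06 (without knockout 4). With libraries scaled to the same sum without insulin, the medians were -0.10 for the 81 genes and -0.0045 for all genes. Single libraries carry weight, both those low and those high on the deposited scale. Without knockout 1, a low library, the median of the 81 was -0.09. Without control 4, also low, it was -0.19 with 13 genes at an unadjusted p below 0.05 (limma). Without knockout 3, a high library, it was -0.20 with 15 such genes.

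Ribosomal protein genes moved together across the libraries. Pearson's r over the 8 libraries between a gene and the mean of the other 80 had a median of 0.88, and 51 of the 81 (63.0%) were above 0.8. For the other 15879 genes tested, r with the mean of the ribosomal protein genes had a median of 0.12, and 3.17% were above 0.8. With each group centred on its own mean, the medians were 0.86 and 0.14, so that the co-variation is present within the groups. All genes share the libraries and their size factors, and these values are a description of 8 libraries. The median r between pairs of the 81 genes was 0.72, against 0.02 for pairs among all genes tested. The first principal component held 54.8% of the variance of the 81. High values were not particular to these genes. The median r between pairs was 0.79 for the 21 translation factors whose messenger RNAs also carry the TOP motif. It was 0.89 for the 13 genes of the mitochondrial genome and 0.96 for 27 genes of acinar (digestive-enzyme) cells. For 78 mitochondrial ribosomal protein genes it was 0.53, and for 88 ribosome biogenesis genes 0.26. The spread over the 8 libraries was smaller than usual, with a median SD of 0.16 on the log2 scale against 0.29. These comparisons with other genes were not matched for level.

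**Figure D3:**
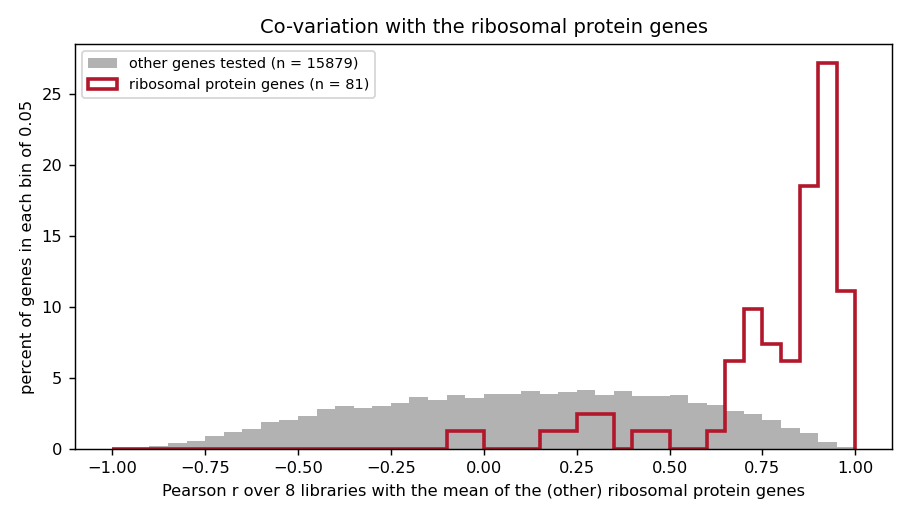
Pearson's r over the 8 libraries with the mean of the ribosomal protein genes (of the other 80, for a ribosomal protein gene), as the percent of genes per bin, for the 81 genes (red line) and for the 15879 other genes tested (grey). Of the red genes 63.0% lie above 0.8, and of the grey ones 3.17%.

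The genes closest to the common pattern were Rpl4, a protein of the exit tunnel (r = 0.98), Rps20, of the small subunit head (r = 0.98), and Rpl24, which bridges the subunits (r = 0.98). Rpl4 stood at 6279, 6543, 6428 and 5667 in the controls and at 5239, 5986, 6348 and 5488 in the libraries labelled knockout, low in control 4, knockout 1 and knockout 4. The genes farthest from it were Rps7 (r = -0.06), Rpl5 (r = -0.03) and Rps2 (r = 0.20).

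These exceptions lay mostly in 1 library. After subtraction of the library's mean over the 81 genes, 7 genes lay more than 0.4 (log2) from it in control 1. Those 7, chosen after their values were seen, were Rpl3, Rpl5, Rpl30, Rps2, Rps7 and Rps18 on the low side and Rpl10 on the high side. In the other 7 libraries together there was 1 such value, Rps7 in knockout 3. Rps18, a protein of the small subunit head, stood at 2346 in control 1 and between 3482 and 4724 elsewhere. Rpl30 stood at 1484 against 2067 to 2799, and Rps7 at 670 against 810 to 1304. Rpl3, whose product shapes the peptidyl transferase centre, stood at 2287 against 3002 to 4389. Rpl10, which takes part in the last step of large subunit maturation, stood at 3009 against 1528 to 2068.

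This library decides the sign of several estimates. The 7 genes with estimates above 0 were Rpl12 (0.22), Rpl3 (0.18), Rps2 (0.15), Rpl5 (0.13), Rps18 (0.11), Rpl14 (0.03) and Rpl30 (0.01), none with an adjusted p below 0.697. Without control 1, 4 of them were below 0, namely Rps2 (-0.06), Rpl5 (-0.06), Rps18 (-0.10) and Rpl30 (-0.19). Rpl3 came to 0.03, Rps7 moved from -0.11 to -0.34 and Rpl10 from -0.09 to 0.12. Without it, 73 of the 81 genes were below 0 and the median was -0.12.

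In the same library, a processed copy of Rps2 was listed above Rps2 itself. Rps2, a protein at the mRNA entry channel, stood at 4295 in control 1, 7755, 8175 and 7155 in the other controls, and 6651, 7426, 8978 and 6705 in the libraries labelled knockout. Its copy Rps2-ps10 stood at 5641 in control 1 and between 3.72 and 14.7 in the other 7 libraries. The sum of both was 9936 in control 1 and 6655 to 8985 in the other libraries. The copy is identical to the Rps2 coding sequence at 874 of 879 bases (99.4%). Within the coding sequence, a read tells the lines apart only where it covers one of the 5 differing bases. What set control 1 apart was not tested.

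**Figure D4:**
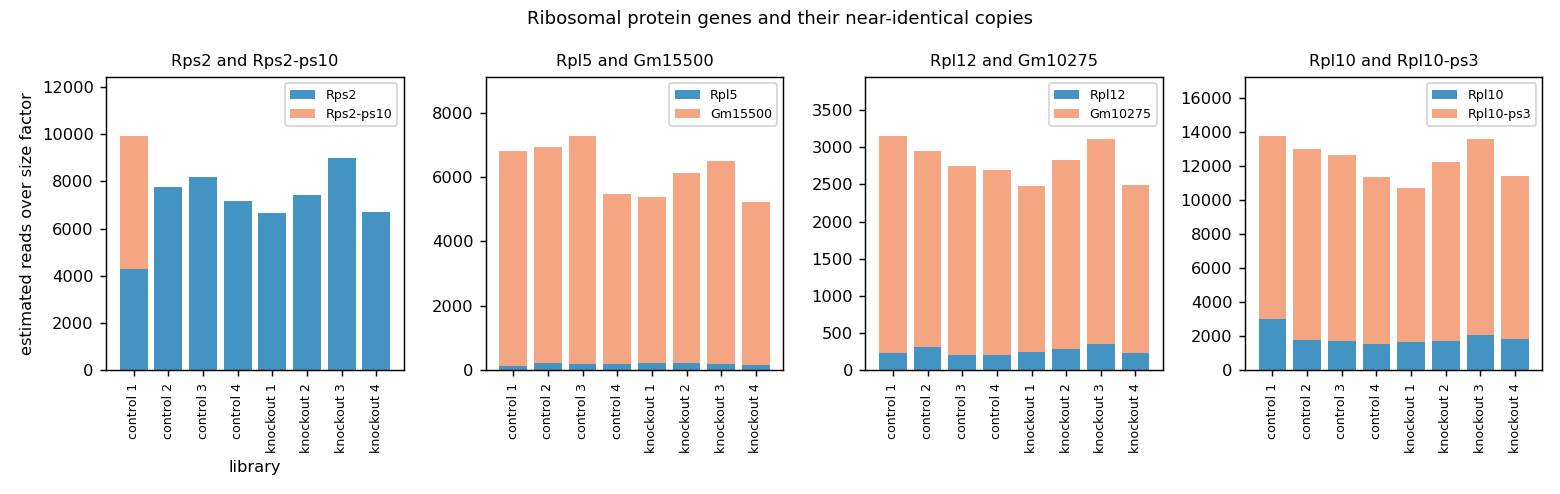
Normalized values of 4 ribosomal protein genes (blue) with a near-identical copy stacked on top (orange) in each library. Rps2-ps10 is visible only in control 1 (5641), whereas Gm15500, Gm10275 and Rpl10-ps3 exceed Rpl5, Rpl12 and Rpl10 in every library.

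Near-identical copies affect the level of many of the 81 genes. A copy was counted where another line of the table holds at least 20% of a gene's distinct 31-base words in the GENCODE vM21 transcripts (GRCm38), a rule set after seeing the data. By this rule 24 genes had at least 1 such line, 26 pairs in all, while 44 genes shared under 5% of their words with any other line. For Rpl13a the line is Gm45713, which overlaps it on chromosome 7 and had a mean of 5.08. Copies without a line in the table may also hold reads, and they were not analysed here.

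In 4 pairs the copy was listed above the gene itself. Rpl5 (chr5:107900502-107909005, plus strand) had a mean of 197 and Gm15500 (chr7:114705217-114706235, minus strand) one of 6016, or 96.8% of both. Rpl12, a protein at the base of the stalk, had a mean of 258 and Gm10275 one of 2548. Rpl10 had 1914 and Rpl10-ps3 10449, and Rpl27a had 1211 and Gm7536 2875. The aligned coding bases of these 4 genes were identical to the copy at every base, 891 for Rpl5, 495 for Rpl12, 642 for Rpl10 and 444 for Rpl27a. Rpl31 and Rps12 were likewise identical to Rpl31-ps8 and Rps12-ps3 over their coding sequence, and Rps23 to Rps23-ps1 over 425 of its 429 coding bases. The first 60 coding bases of Rpl5, Rpl12 and Rpl10, shown because the copies read the same, were as follows.

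Rpl5 and Gm15500: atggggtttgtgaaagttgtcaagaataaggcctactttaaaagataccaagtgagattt
Rpl12 and Gm10275: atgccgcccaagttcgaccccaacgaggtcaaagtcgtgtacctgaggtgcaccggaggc
Rpl10 and Rpl10-ps3: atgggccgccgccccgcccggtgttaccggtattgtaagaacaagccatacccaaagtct

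A copy that has drifted further is Rps2-ps11 on chromosome 9, which matches Rps2 at 844 of 868 aligned coding bases (97.2%). Its values were between 0.799 and 32.04 in the 8 libraries. Coding bases 540 to 599 of Rps2 are shown with the aligned stretch of the copy, and capitals mark the 4 bases that differ.

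Rps2: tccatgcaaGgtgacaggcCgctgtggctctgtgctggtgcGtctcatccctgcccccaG
Rps2-ps11: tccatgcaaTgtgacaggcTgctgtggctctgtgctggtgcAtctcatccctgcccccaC

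With each gene's copies added to its own line, 3 of the 7 estimates above 0 came to lie below it. The log2 difference was then -0.19 for Rpl5, -0.09 for Rpl12 and -0.15 for Rps2, each of them above 0 on its own line. Rpl37 together with Rpl37rt, which ranged from 8.52 to 649, came to -0.38 (SE 0.11, limma, adjusted p = 0.237). In all, 77 of the 81 sums were below 0, with a median of -0.14 and 0 called by limma. The 4 above 0 were Rpl3, Rps18, Rpl14 and Rpl30. The 44 genes sharing under 5% of their words had a median of -0.14, and 42 of them were below 0.

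Other ribosomal and translation genes lay in the same range, with 0 genes called in any of the lists that follow. Of the ribosomal components whose symbols fall outside the rule, Rpsa had a log2 difference of -0.22, the scaffold protein Rack1 -0.18 and the ubiquitin-like fusion Fau -0.16. Of 21 translation factors and related genes whose messenger RNAs also carry the TOP motif, 21 were below 0 (median -0.13). Nop53, needed for large subunit assembly, had -0.31 (limma, adjusted p = 0.342) and Eif2s3x, a subunit of initiation factor 2, had -0.33 (limma, adjusted p = 0.430).

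Of 31 other initiation and elongation factors, 27 were below 0 (median -0.15). Eif6, which keeps the subunits apart, stood at 364, 358, 385 and 293 in the controls and at 251, 235, 276 and 282 in the libraries labelled knockout, without overlap (log2 difference -0.42, SE 0.13, limma, adjusted p = 0.259). Eif2s1, whose product is phosphorylated under endoplasmic reticulum stress, had -0.48 (SE 0.15, limma, adjusted p = 0.266). Of 88 ribosome biogenesis genes, 50 were below 0 (median -0.05), a share close to the 55.1% of all genes. Nmd3, the export adaptor of the large subunit, had -0.46 (SE 0.13, limma, adjusted p = 0.225). Of 78 mitochondrial ribosomal protein genes, 58 were below 0 (median -0.09).

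Of 28 genes of the mTORC1 pathway, 18 were below 0 (median -0.11). Sesn2, a leucine sensor that restrains mTORC1, stood at 3396, 2174, 2344 and 1681 in the controls and at 1363, 1425, 1651 and 1567 in the libraries labelled knockout. The groups did not overlap, and control 4 and knockout 3 were nearest to each other (log2 difference -0.63, SE 0.18, limma, adjusted p = 0.225). Ddit4, another inhibitor of mTORC1, had means of 1491 ± 409 and 2427 ± 987 (SD, n = 4 each), higher in the libraries labelled knockout (log2 difference 0.66, limma, adjusted p = 0.438). Rheb, the GTPase that activates mTORC1, had -0.31 (limma, adjusted p = 0.330).

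**Figure D5:**
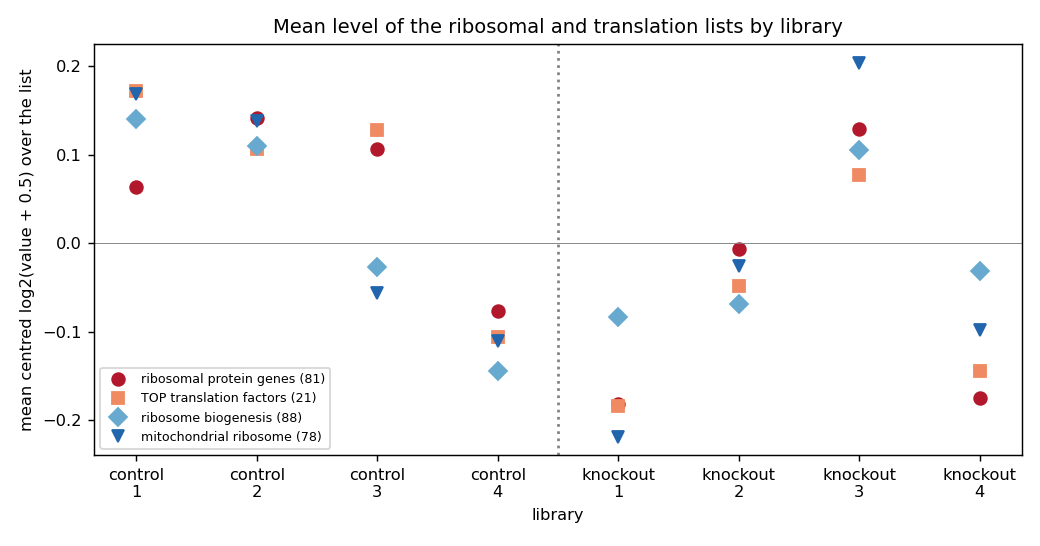
Mean centred log2 level of the ribosomal protein genes and of 3 related lists in each library, with controls on the left and libraries labelled knockout on the right. The TOP translation factors, like the ribosomal protein genes, are lowest in knockout 1 and knockout 4, and all 4 lists overlap between the groups.

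Signals of other compartments differed between the same libraries. The 27 acinar genes with a line, which mark the digestive-enzyme cells around the islets, summed to 45216 to 225085 in control libraries, against 117817 to 319497 in those labelled knockout, and 26 of 27 estimates were above 0 (median 0.97, 0 called). When that score entered the fit as a covariate, the median of the 81 ribosomal protein genes was -0.12, with 67 below 0. The number at an unadjusted p below 0.05 was then 1 instead of 6, and the smallest adjusted p by limma was 0.408 instead of 0.221. Of 11 stellate genes 11 were above 0 (2743 to 7685 against 4471 to 5797 in sum), and of 13 endothelial genes 11 (7797 to 13737 against 12029 to 15406). The 14 macrophage genes, 9 of them above 0, summed to 2030 to 2771 against 1920 to 2635. The 12 duct genes summed to 23757 to 38336 against 23260 to 28110, and 10 of them were below 0 (median -0.19, 0 called). The duct genes hardly varied together (median r between pairs 0.08). The defining genes Cftr and Onecut1 of duct, Gp2 of acinar and Robo4 of endothelial cells were without a line or at 0. The 13 genes of the mitochondrial genome were all below 0 (median -0.38, 0 called), and their sums, 684700 to 767333 for controls, against 533839 to 665529 for the libraries labelled knockout, did not overlap. The part of these signals in the ribosomal result was not tested beyond the acinar covariate.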

How the data were processed

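RNA of isolated islets was extracted with the RNeasy kit, and stranded libraries were made with the KAPA kit. Reads were trimmed with cutadapt (1.13) and pseudoaligned with kallisto (0.46.1) to the Ensembl GRCm38 transcriptome, and gene totals were formed in sleuth. Pseudoalignment divides reads between compatible transcripts. The deposited table gives, per library, a normalized signal that the authors obtained as estimated reads over a size factor. Its other columns hold the authors' own group comparison (p and q values, effect size and variance terms) and were not used. The 16684 lines were reduced to 15985 symbols, with distinct identifiers of a symbol (216 symbols had more than 1 line) summed. Depth was read from the step of low values of single-transcript genes. Since 64.7% to 74.3% of them fell on whole reads (tolerance 0.05 reads), they could not be recovered as counts, so that no count test was run.

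Groups came from the labels. Genes exceeding a value of 1 in 4 or more libraries were tested with limma (3.58.1, R 4.3.3; trended, robust prior; two-sided; Benjamini-Hochberg adjustment over 15960 genes at 0.05) on log2(value + 0.5), and fold changes are on that scale. On simulated data for this comparison (15960 genes, 5 runs, 200 changed genes), 57.8% of genes changed by 1 and 83.6% of those changed by 2 on the log2 scale were recovered, and 5.33% of calls were false. Tables and figures were made with Python (3.11.15) and matplotlib (3.10.9). The member genes, the lists and the tests were chosen with earlier results of these data known. Members named with values were those of the paralog, stalk and known-role lists, the 5 smallest p in each direction, the 3 highest and 3 lowest means, the 3 highest and 3 lowest correlations, and those whose groups did not overlap. Of the other lists, genes with the smallest p were named. Values of 2 genes are not reported here singly. All other genes were chosen after their values were seen. Alternatives covered pseudocount, filter, scaling, variance prior, replicate block, acinar covariate, identifier rows and leaving out each library. The copy-summed lines, the restriction to genes with few shared words and the scaling to equal sums were added after seeing the data.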

Additional observations from a re-analysis of the deposited data

Results flagged for a closer look

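In each group of 4 libraries, the highest or lowest value was compared with the others by Dixon's ratio (gap over range) at its 95% critical value. Chance alone flags about 1 in 20 groups, and 160 groups were tested for 80 of the 81 ribosomal protein genes, with 12 values past the limit. In control 4, 8 genes were low, which is the library with the lowest mean level among the controls. They were Rpl13 (5814, others 6837 to 7004), Rpl18 (2440, others 2764 to 2801), Rpl19 (5870, others 7062 to 7278), Rpl21 (2448, others 2739 to 2775) and Rpl23a (4018, others 4670 to 4756). The others were Rpl8 (6756, others 7915 to 8027), Rplp2 (2544, others 2892 to 2955) and Rps14 (5616, others 7448 to 7670).

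Among the libraries labelled knockout, knockout 3 was high for Rpl13a (8926, others 7208 to 7435), Rpl22 (1682, others 1466 to 1487) and Rpl22l1 (1484, others 1079 to 1106). Knockout 1 was low for Rps4l (456, others 644 to 676). Among the lines of near-identical copies, control 1 was high for Rps2-ps10 (5641, others 7.87 to 14.7) and for Gm5835, a copy of Rpl4 (4.79, others 2.40 to 2.63). Control 3 was high for Rps12-ps3 (706, others 522 to 547), and knockout 2 was low for Gm17415, a copy of Rpl7a (12.3, others 35.5 to 36.96).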

How the results depend on the processing

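Under all 21 alternatives limma called 0 of the 81 ribosomal protein genes, and the smallest adjusted p of any was 0.0838 (Rpl13a, quantile normalization). Their median log2 difference stayed below 0, between -0.20 (without knockout 3) and -0.04 (equal sums). No move exceeded the SD of the mean level between libraries (0.15). That limit is wider than the distance of the median (-0.13) from 0, so that a move to 0 would also have passed. The median was -0.07 under quantile normalization, and between -0.20 and -0.09 with 1 library left out. Of the 81 estimates, 55 kept their sign throughout and 26 changed it in at least 1 alternative, most often with equal sums (15 genes), quantile normalization (13) and without control 1 (9). The number of all genes called was 9 as reported, 14 with a pseudocount of 1, 17 with quantile normalization, 1 with no trend and no robust prior, 3 with the acinar covariate and 1 with equal sums without insulin. It lay between 1 and 58 with 1 library left out, the highest without control 2. The cause was not tested.

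The labels do not say whether same-numbered libraries of the groups belong together. The correlations of same-numbered libraries' deviations were -0.16, -0.03, -0.12 and 0.07. Such values cannot show whether the animals were littermates or were handled together. With the replicate block, 0 of the 81 genes were called, the median stayed at -0.13, and 2 genes instead of 6 had an unadjusted p below 0.05. One read is worth far less than the level of any of the 81 genes. For the 24 genes with a copy line, the level also depends on how reads were divided between the lines, and 57 genes had no such line.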
